A study of Mus musculus with 48 samples.

Results

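The ribosome of the cytosol reads mRNA and joins amino acids into protein, and it is built from rRNA and a fixed set of ribosomal proteins. The small subunit (Rps genes) holds the mRNA and checks codon against anticodon, the large subunit (Rpl genes) forms the peptide bond and the exit tunnel, and the P proteins (Rplp0, Rplp1 and Rplp2) form a flexible stalk that recruits elongation factors. The proteins are needed in fixed proportions, and their mRNAs are known to be made and translated in a coordinated way. Translation of these mRNAs depends on nutrients through mTOR signalling. In the marrow, erythroid precursors are known to be sensitive to a shortage of single ribosomal proteins, as in Diamond-Blackfan anemia.

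The study sequenced tibia RNA of 12 mice, male and of the strain C57BL/6J, with 3 mice in each of 4 groups that cross age (young or aged) with diet (AL or CR). AL mice ate ad libitum, and CR mice received 10% less food in week 1, 20% less in week 2 and 40% less from week 3 of an 8-week diet. According to the methods, the start of CR also brought a change of food to a formula enriched in micronutrients. The labels give an age at the start of 10 weeks for young mice and of 15 to 18 months for aged mice. For young mice, the methods instead give a range of 8 to 12 weeks. A whole tibia holds bone, marrow and any tissue attached to it, so a lower value can mean fewer cells of a type or less RNA per cell, which cannot be told apart in these data. Each mouse has 4 technical repeats in the labels but 1 column in the deposited table, and n is the number of mice. Mice are called by their numbers: 9, 10 and 11 (young AL), 1, 2 and 3 (young CR), 13, 14 and 15 (aged AL), and 5, 6 and 7 (aged CR).

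Ribosomal protein genes were taken by name. Names starting with Rpl or Rps and a digit, and Rplp0, Rplp1, Rplp2 and Rpsa, were kept unless they marked a pseudogene (-ps) or an Rps6 kinase, and a mean of at least 1 FPKM (fragments per kilobase of a gene's transcript, relative to the mapped total) over the 12 mice was required. This gave 91 of the 29801 genes listed, and no matching name was lost to the FPKM limit. Of these, 77 were core genes of the mouse ribosome, 31 for the small subunit and 46 for the large subunit with its 3 stalk proteins. The name rule leaves out Fau, whose ribosomal protein is made as a fusion with a ubiquitin-like domain. The other 14 names were no core genes. Rps19bp1 encodes a protein that binds Rps19 and is not a ribosomal protein. Rpl3l, Rpl7l1, Rpl22l1, Rpl36al, Rpl39l, Rps27l and Rps27rt are paralogs or retrocopies. GENCODE M21 marks Rps4l, Rpl37rt, Rpl6l, Rps12l1, Rps3a2 and Rps3a3 as processed pseudogenes. The core genes lay on 19 chromosomes in GRCm38, with 14 on chromosome 7.

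Many ribosomal protein mRNAs start with a C followed by an unbroken run of pyrimidines. This terminal oligopyrimidine (TOP) tract is known to place their translation under mTOR control. The RefSeq starts of GRCm38.p6 were searched for a C at the first base followed by at least 4 bases that were C or T. The start table held 57 of the 77 core genes with 67 starts, and 13 of these starts (19.4%) had such a tract, against 2.51% of all 32851 starts in the table. The letters describe the annotated start and not the start used in these tibiae. The windows below are shown because the members they belong to are described further on. Each holds 15 bases before and 15 bases from the start, 5′ to 3′ on the gene's strand, with the tract in capitals. Rps6 lies on the minus strand at chr4:86857353-86857382, Rpl38 on the plus strand at chr11:114668565-114668594, Rpl35a on the plus strand at chr16:33056467-33056496, Rplp2 on the plus strand at chr7:141447636-141447665, Rps27 on the minus strand at chr3:90213634-90213663, and its retrocopy Rps27rt on the minus strand at chr9:114982725-114982754.
Rps6: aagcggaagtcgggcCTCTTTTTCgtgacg
Rpl38: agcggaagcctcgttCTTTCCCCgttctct
Rpl35a: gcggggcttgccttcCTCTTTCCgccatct
Rplp2: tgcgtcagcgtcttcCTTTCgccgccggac
Rps27: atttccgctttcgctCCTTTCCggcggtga
Rps27rt: agaacttatcccttgCTTTCCggcggtgac
In the 300 bases around a start (250 before, 50 after), searched on both strands, CCGGAA (the core of the sites of ETS factors such as GABP) was present at 49.3% of the 67 starts and at 14.9% of all starts. The Sp1 core GGGCGG was present at 61.2% and 35.7%. The YY1 core AAGATGG was present at 16.4% and 6.34%. The TATA box TATAAA was present at 8.96% and 13.6%. A match is a description of the sequence and not a binding site.

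The 91 genes had mean values from 2.27 to 1520 FPKM, with a median of 229 FPKM. FPKM is per length, but sequence shared with other genes, described next, limits how far listed levels can be compared between genes. The highest listed means among the core genes belonged to Rplp1, Rpl41, Rps14 and Rpl32, and the lowest to Rps13, Rpl38, Rpl15 and Rpl24. Every 50-base word of the coding sequences of these 4 lowest genes was also found in other genes, and rows named as pseudogenes held 92.1% of the summed FPKM of Rps13 and its copies, 92.7% for Rpl38 and 80.1% for Rpl15, so the order of listed values is not an order of gene levels. Small subunit genes had a median of 405 FPKM and large subunit genes with the stalk 202 FPKM. All 91 together made up 4.58% to 5.64% of all FPKM of a mouse. In comparison, the 81 genes of the mitochondrial ribosome tested had a median of 18.8 FPKM.

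Level differed with the share of sequence that a gene has in common with other genes. Ribosomal protein genes are known for their many processed pseudogenes, and reads from such sequence can be assigned to several places. Every 50-base word of each coding sequence was looked up in the other annotated transcripts of GENCODE M21. For 29 of the 77 core genes every word was also found in another gene, and for 67 at least 50% were, while 10 shared less than 50%. The 10 genes with less than 50% shared (among them Rpl4, Rpl8, Rpl22, Rpl32, Rps3, Rps9, Rps15 and Rps21) had a median of 838 FPKM. The 29 genes with all words shared had a median of 116 FPKM. Rows named as pseudogenes of ribosomal protein genes carried a large amount of signal: 129 of 219 such rows had a mean of at least 1 FPKM, 58 were above 100 FPKM, and together all of them took 3.32% to 3.99% of all FPKM of a mouse. For 31 core genes the rows named as their pseudogenes summed to more FPKM than the gene itself. Rps23-ps1 had 1240 FPKM against 200 FPKM for Rps23, and the single copy row of Rps16 had 994 FPKM against 156 FPKM for Rps16. The value of a gene with many shared words is therefore uncertain. The sources used here do not say how the authors' counting placed such reads.

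**Figure D1:**
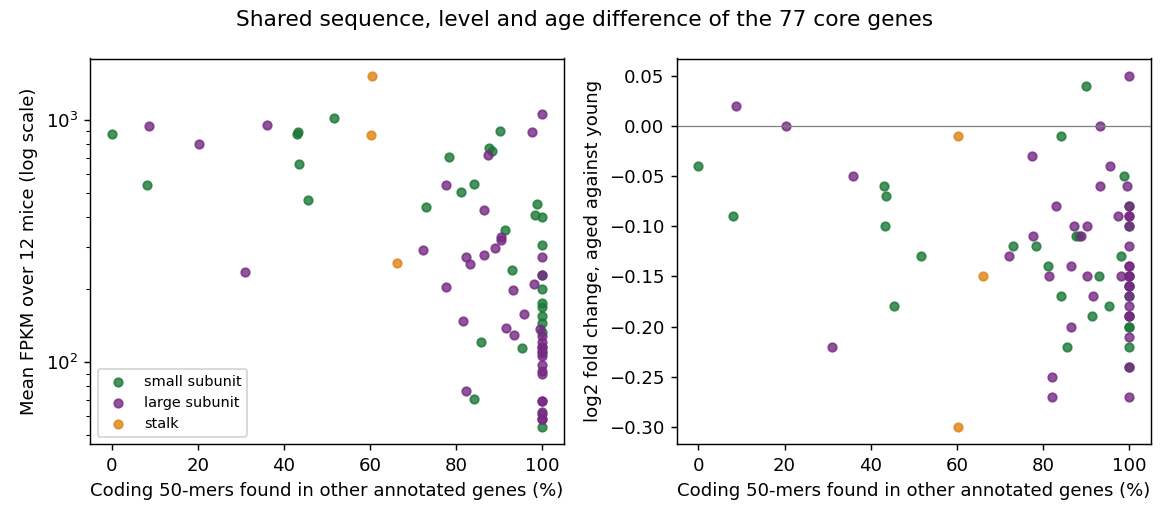
Share of coding 50-base words found in other annotated genes (x axis, %) against mean FPKM (left, log scale) and against the log2 fold change between aged and young mice (right) for the 77 core genes. Each point is a gene, coloured by subunit. Genes with less than 50% shared words sit between 237 and 952 FPKM, and the genes at 100% reach down to 54.3 FPKM.

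Over all genes, the libraries were compared after quantile normalization, which brings the mice close to a common distribution. Total FPKM ran from 636207 to 636212, while 6856 to 8057 genes of a mouse were listed at 0. Mouse 14 lay farthest from the other mice of its group, at 0.435 on the log2(FPKM + 1) scale (the root mean square of its differences from their mean over all genes tested) against 0.243 to 0.378 in the other 11 mice, and it had the lowest summed bone and B cell markers and the highest muscle markers. Markers of bone (10 genes) were present in all 12 mice, at summed levels of 357 to 1850 FPKM.

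No ribosomal protein gene passed an adjusted p of 0.05 (limma on log2(FPKM + 1), Benjamini-Hochberg over 13590 genes) in any of the 5 comparisons made. CR was compared with AL in young mice, where 0.0662% of all genes passed, and in aged mice, where 0% did. Diet was also compared across both ages (0.258% of all genes) and age across both diets (0.758%), and the interaction tested whether the diet difference depended on age (0%). An unequal-variance test on FPKM with the same adjustment passed none of the 91 in young or in aged mice. What follows describes sizes, counts and unadjusted p-values beside the same over all genes.

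Nearly every member had a lower mean in aged than in young tibiae, by a small amount, and none passed the adjusted threshold. Over both diets, 83 of 91 had a log2 fold change below 0, against 55.6% of all genes. The median was -0.126 (8.36% lower), against -0.017 over all genes and -0.042 over the 1455 genes with at least 50 FPKM. At an unadjusted limma p under 0.05, 41 of 91 were lower with age, or 45.1%, against 9.76% of all genes, and none of 91 was higher, against 6.80% of all genes. Of the 1455 genes with at least 50 FPKM, 917 had a log2 fold change below 0. At that p, 232 of these 1455 were lower and 110 were higher, so genes of high level leaned lower as well. The sign was shared by both subunits, with 30 of 31 small subunit genes and 42 of 46 large subunit and stalk genes lower, at medians of -0.128 and -0.139. The members are not separate observations, as they rose and fell together over the 12 mice. The median correlation of a member with the mean of the other members was 0.767. It was above 0.7 for 59.3% of members, while 5.12% of all genes had such a correlation with the members' mean. The pattern was not particular to the members. Rows named as pseudogenes had a median correlation with the members' mean of 0.783, and mitochondrial ribosomal protein genes of 0.596. The mice are few, and the count of members lower at an unadjusted p under 0.05 moved with single mice. It was 15 without mouse 2 (7.10% of all genes were then lower at that p), 17 without mouse 1 (6.84%), 22 without mouse 7 (6.79%), 24 without mouse 10 (7.26%), 25 without mouse 13 (9.72%) and 27 without mouse 6 (9.13%), and it was 23 after scaling by size factors (8.06%). Without mouse 3 the count was 56, where 12% of all genes were lower at that p, and 9 of the 91 then passed the adjusted threshold, all lower (limma, against 1.02% of all genes lower). Limma can also weight each mouse by how closely its values follow its group in these same data. With these mouse weights, 47 of the 91 passed, all lower, against 8.03% of all genes. The lowest weights went to mice 14 (0.259) and 3 (0.453), whose mean deviations over the 91 crossed between the ages (described below). The number of members with a log2 fold change below 0 stayed between 81 and 88 in all these fits.

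The 5 members with the smallest p for age were Rpl9, Rps27a, Rps16, Rpl35a and Rps4l. Rpl9, a large subunit protein near the base of the stalk, had 138, 137 and 133 FPKM in young AL mice, 139, 142 and 132 in young CR mice, 115, 120 and 116 in aged AL mice, and 126, 126 and 116 in aged CR mice. All 6 young mice lay above all 6 aged mice. Means were 137 ± 3.78 FPKM in young and 120 ± 4.89 FPKM in aged mice (SD, n = 6), with a log2 fold change of -0.19 ± 0.0441 (SE, limma, adjusted p = 0.078). Summed with the rows named as its pseudogenes, Rpl9 was at -0.09. Rps10 was the only other member with no overlap between the ages, and it was picked out for that after its values were seen. Young mice held 236 to 275 FPKM of Rps10 and aged mice 216 to 233 FPKM (log2 fold change -0.15, limma, adjusted p = 0.179). These 2 of 91 members (2.20%) stood against 0.758% of all genes with every aged mouse below every young mouse.

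Rps27a, which encodes ubiquitin fused to a small subunit protein, had 185, 205 and 182 FPKM in young AL mice, 197, 203 and 173 in young CR mice, 157, 165 and 159 in aged AL mice and 174, 155 and 159 in aged CR mice. Only mice 3 and 5 met in the middle. The log2 fold change was -0.24 ± 0.0573 (SE, limma, adjusted p = 0.0904). Rps16, a small subunit protein near the decoding site, had 154, 156 and 161 FPKM in young AL mice, 182, 188 and 162 in young CR mice, 145, 154 and 145 in aged AL mice and 139, 152 and 136 in aged CR mice. Young CR mice were highest, and aged AL mouse 14 reached the lowest young mouse. Its log2 fold change with age was -0.20 ± 0.0524 (SE, limma, adjusted p = 0.114), or -0.11 when summed with its pseudogene row.

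Rpl35a, a large subunit gene of the Diamond-Blackfan anemia group whose start is shown above, had 291, 302 and 262 FPKM in young AL mice, 327, 340 and 266 in young CR mice, 247, 248 and 228 in aged AL mice and 273, 243 and 239 in aged CR mice. Aged CR mouse 5 overlapped the young range. The log2 fold change was -0.27 ± 0.0714 (SE, limma, adjusted p = 0.117). Rps4l, a transcribed copy of Rps4x that GENCODE lists as a pseudogene, had 8.91, 7.44 and 8.06 FPKM in young AL mice, 8.72, 13.3 and 7.77 in young CR mice, 5.40, 3.69 and 4.05 in aged AL mice and 10.4, 6.11 and 5.77 in aged CR mice. Its aged AL mice were the lowest 3 of 12, and its aged CR mouse 5 lay within the young CR range. It had the largest age difference of the 91, with a log2 fold change of -0.58 ± 0.157 (SE, limma, adjusted p = 0.125), and 14.9% of its 50-base words were shared.

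**Figure D2:**
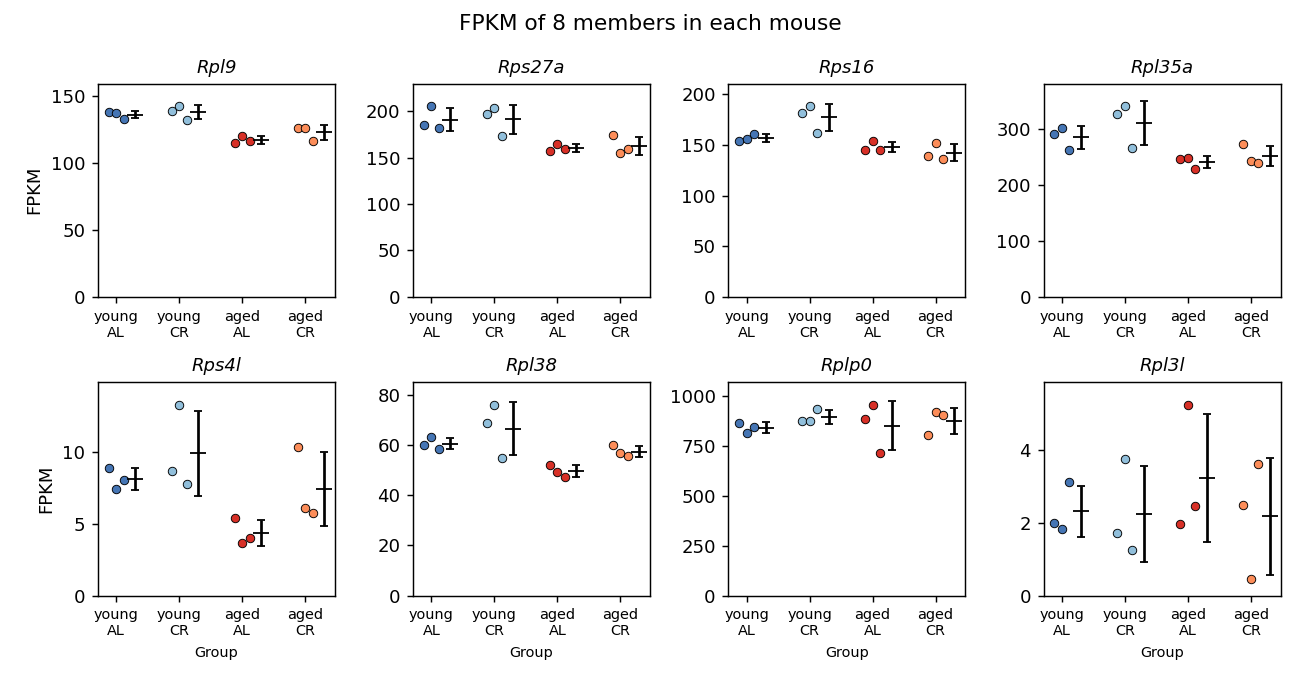
FPKM of 8 members in each mouse by group (y axes start at 0). Points are mice (n = 3 per group), and the bar beside them is the mean with its SD. Rpl9 separates all 6 young from all 6 aged mice, Rplp0 has overlapping groups, and Rpl3l varies most within groups.

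A group of core genes stood near 0 for age. Rplp0, the base of the stalk, had 812 to 933 FPKM in young and 714 to 954 FPKM in aged mice, and the groups overlapped. Its log2 fold change was -0.01 ± 0.0712 (SE, limma, adjusted p = 0.965). Rplp1, the member with the highest listed FPKM, was at -0.30 ± 0.106 (SE, limma, adjusted p = 0.203) and Rplp2 at -0.15. Rplp1 had 1390 to 2060 FPKM in young and 1070 to 1550 FPKM in aged mice. The 3 stalk genes thus ran from -0.30 to -0.01, while all core genes ran from -0.30 to 0.05, though their difference from each other was not tested. Rps4x, the X-linked small subunit gene, and Rpl10, a protein that joins the large subunit late, were at 0.04 and 0.05 on the log2 scale. Rps6, the substrate of S6 kinase, was at -0.08, and Rpsa, the laminin receptor homolog, at -0.05.

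Split by shared sequence, the 10 core genes with less than 50% of words shared had a median log2 fold change of -0.068 with age, 8 of 10 were lower and 1 was lower at an unadjusted p under 0.05. That 1 in 10 stood beside 9.76% of all genes and 232 of the 1455 genes with at least 50 FPKM. The median lies near the -0.042 of those 1455 genes, so by count these 10 genes stood at about the background. The 29 genes with every word shared had a median of -0.159, 28 of 29 were lower and 20 were so at that p. Level moved along with sharing: the 21 core genes with at least 500 FPKM had a median of -0.091, the 23 between 200 and 500 FPKM -0.136 and the 33 below 200 FPKM -0.159. The part of shared sequence and of level in the age difference was not tested. The 129 pseudogene rows went the same way, with 124 lower, a median of -0.169, 76 lower at an unadjusted p under 0.05, and 1 passing the adjusted threshold. When each member was summed with the rows named as its pseudogenes, none of the 91 passed, 83 were lower, 36 at an unadjusted p under 0.05, and the median was -0.110.

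**Figure D3:**
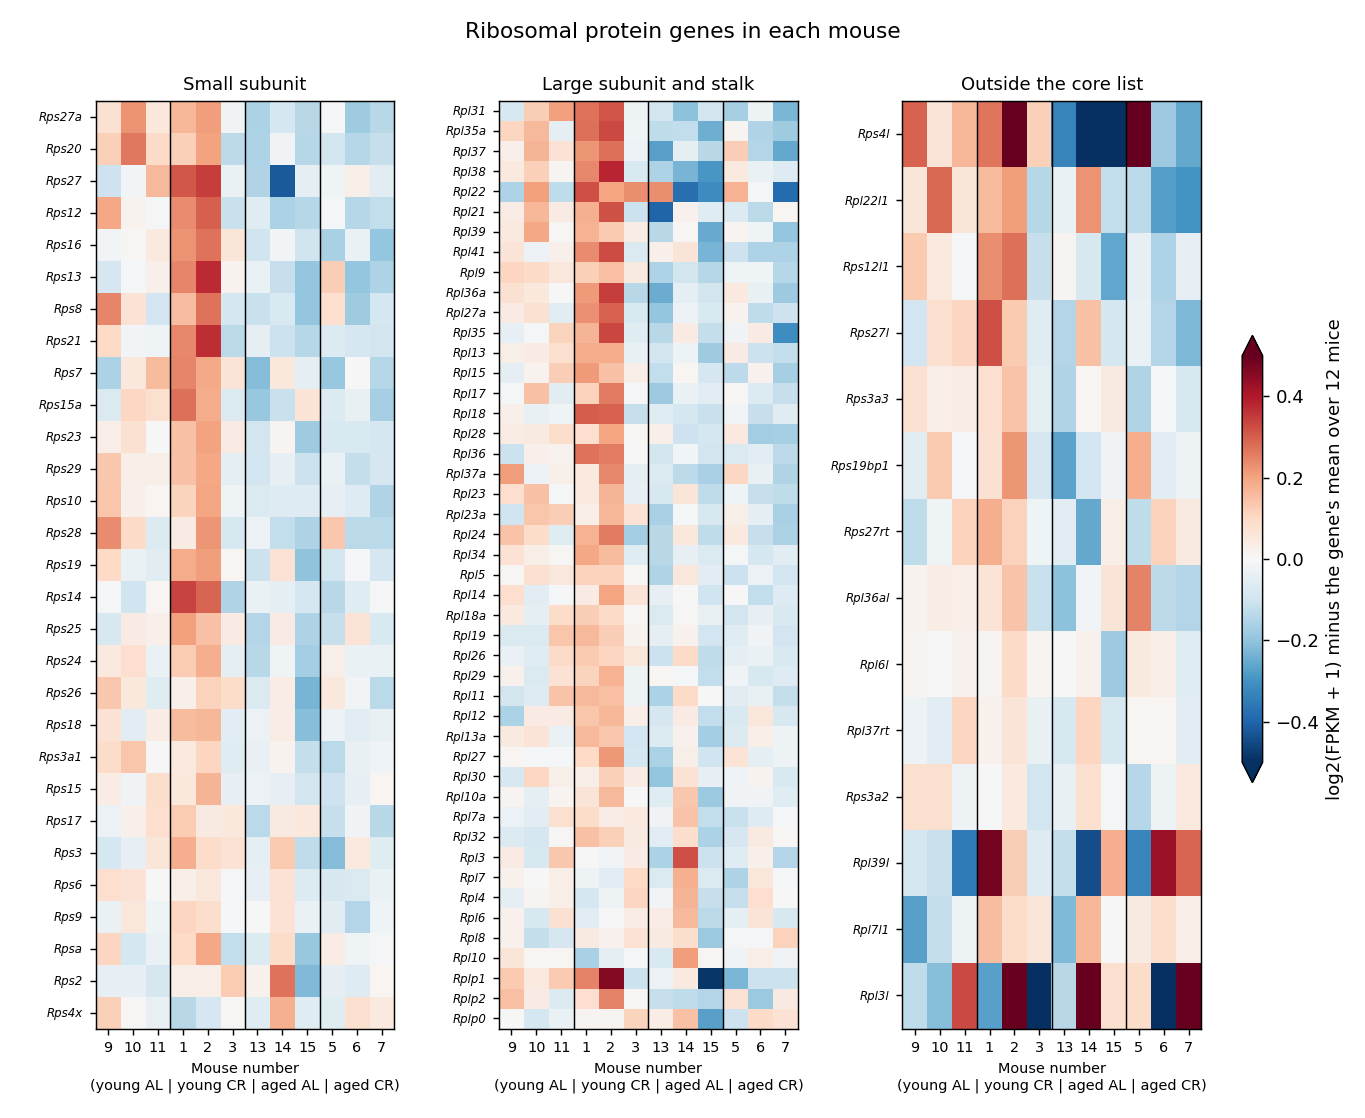
Deviation of members from its own mean over 12 mice (colour, log2(FPKM + 1), limited to ±0.5) in each mouse, for small subunit genes, large subunit and stalk genes, and rows outside the core list, sorted by the age difference. Young CR mice 1 and 2 are above the mean in most rows, aged AL mice 13 and 15 and aged CR mice 6 and 7 are below it, and mouse 3 is close to it.

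Single mice differed in how many members they held above the member's own mean over the 12 mice. Young CR mice 1 and 2 had 83 and 85 of 91 above it, and young CR mouse 3 had 39. Young AL mice had 54 to 59. Aged AL mice 13 and 15 had 11 and 8, and aged AL mouse 14 had 52. Aged CR mice had 13 to 29. Mouse 2 held the highest value of the 12 mice for 43 members, and mouse 15 the lowest for 31. The mean deviation over the 91 was 0.021 to 0.030 on the log2 scale in young AL mice, 0.132, 0.184 and -0.021 in young CR mice, -0.094, 0.007 and -0.120 in aged AL mice and -0.030 to -0.080 in aged CR mice. Mouse 14, which was aged, lay above mouse 3, which was young, and in all other pairs the young mouse lay above the aged mouse.

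**Figure D4:**
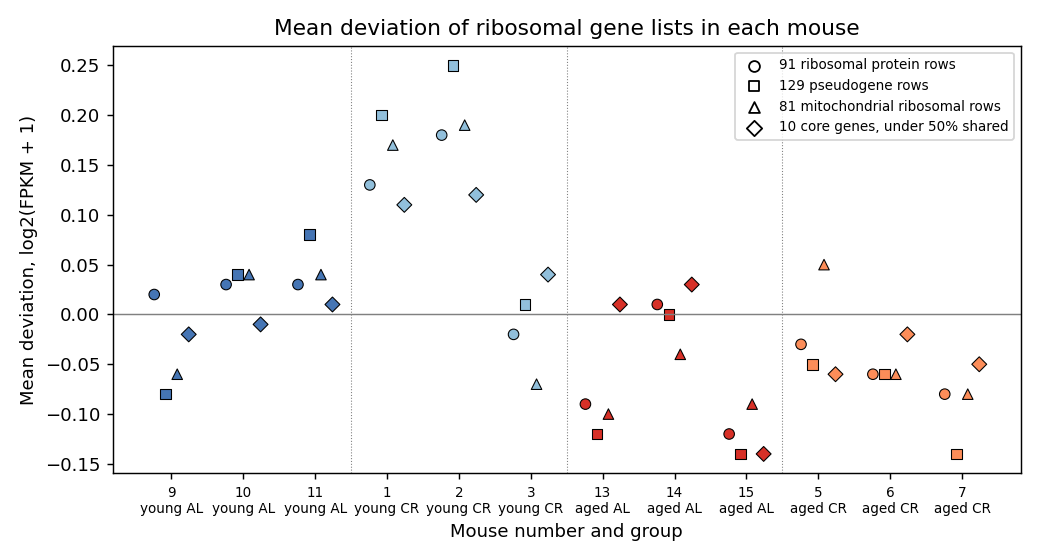
Mean deviation of 4 gene lists from their means over the 12 mice (y axis, log2(FPKM + 1)) in each mouse. Shapes are lists and colours are groups. Young CR mice 1 and 2 are highest for all 4 lists, from 0.11 to 0.25, and mouse 15 is at -0.09 to -0.14.

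The age difference was present within each diet by size. In AL mice 77 of 91 members had a lower mean in aged than in young mice with a median of -0.086, where 53.5% of all genes were lower. In CR mice 89 of 91 were lower with a median of -0.161, where 56.0% of all genes were lower. The difference between these is the interaction, described below.

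Other lists show how far the pattern reached. The 81 mitochondrial ribosomal protein genes, which build the separate ribosome of mitochondria, had a median of -0.104 with age, 77 of 81 were lower and 15 were lower at an unadjusted p under 0.05, against 55.6% and 9.76% of all genes. Fau, which the name rule misses, was at -0.26 (limma, adjusted p = 0.146). Elongation factors had 6 of 8 lower at a median of -0.043 and none at an unadjusted p under 0.05. Initiation factors had 16 of 35 lower at a median of 0.001, with Eif1ax at -0.15 (p = 0.0436, unadjusted limma) and Eif4g1, the scaffold of the cap complex, at 0.25 (p = 0.0353, unadjusted limma). Factors of ribosome biogenesis had 16 of 41 lower at a median of 0.019, with Bop1 at 0.17 and Znhit3 at -0.25. Genes of the mTOR and Myc group had 9 of 23 lower at a median of 0.014. Hosts of small nucleolar RNAs, several of which are TOP mRNAs, had 7 of 7 lower at a median of -0.105, with Snhg6 at -0.18 and Gas5 at -0.13. No gene of these lists passed the adjusted threshold for age. Core genes whose window holds a TOP tract had 13 of 13 lower at a median of -0.159, and those with a window without it 40 of 44 at -0.126. Of 21 other genes known for TOP mRNAs, Fau among them, 16 were lower at a median of -0.047. Of these, 4 were lower at an unadjusted p under 0.05. Differences between these sets were not tested.

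Markers of other cells were also compared between the ages, and the lists differed in direction. Of the 7 cartilage markers tested, 7 were lower and 6 passed the adjusted threshold, with summed levels of 73.2 to 105 FPKM in young and 22.8 to 44.9 FPKM in aged mice (Sox9 was under the limit and Matn3 was listed at 0 in at least 1 mouse). Neutrophil markers were lower for 12 of 12 genes and summed to 42500 to 48500 FPKM in young and 30100 to 44400 FPKM in aged mice. B cell markers were lower for 11 of 12 (180 to 380 against 96.9 to 345 FPKM) and bone markers for 10 of 10 (800 to 1850 against 357 to 1490 FPKM). Muscle markers were higher for 8 of 8 (119 to 355 against 127 to 887 FPKM), and markers of dividing cells were lower for 6 of 8 (420 to 533 against 403 to 535 FPKM). T and NK cell markers were higher for 5 of 8 at a median of 0.300, and 4 of the higher and 1 of the lower genes had an unadjusted limma p under 0.05 (65.7 to 86.7 against 75.9 to 96.1 FPKM). Fat cell markers were higher for 6 of 7 at a median of 0.252, with 2 higher at that p (289 to 769 against 268 to 950 FPKM). Of 12 erythroid markers, 7 were higher and 4 lower at a median of 0.012, none at that p. Their sum, held mostly by globin genes, was 187000 to 188000 FPKM at both ages, but quantile normalization gives the top ranks fixed values. Hba-a2 (37700 FPKM) and Hbb-bs (65200 FPKM) had an SD of 0 in every group, so this sum cannot show a change in erythroid cells. The neutrophil sum is limited too, with S100a8 (15200 FPKM) and S100a9 (17600 FPKM) at an SD of 0 in both young groups. Apart from cartilage, none of these markers passed the adjusted threshold. Their part in the ribosomal values was not tested.

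In young mice, most members had a slightly higher mean in CR than in AL tibiae, and none passed. Of the 91, 76 had a log2 fold change above 0 against 52.2% of all genes, with a median of 0.068 (4.85% higher) against 0.008. At an unadjusted limma p under 0.05, 3 of 91 (3.30%) were higher against 5.79% of all genes, and none was lower against 5.24%. The CR mice did not overlap with the AL mice and were higher for 7 members (7.69%), namely Rpl32, Rpl39l, Rpl7l1, Rplp0, Rps16, Rps2 and Rps3, against 10.1% of all genes, so neither count exceeded the background. The size rested on single mice, with a median of 0.134 without mouse 3 and of 0.021 without mouse 2. The smallest p belonged to Rpl36, with 195, 214 and 213 FPKM in AL mice and 254, 251 and 210 in CR mice. Mice 1 and 2 were above all AL mice and mouse 3 was not (log2 fold change 0.20 ± 0.0812, SE, limma, adjusted p = 0.408). Rps16, whose values are given above, was at 0.17 (limma, adjusted p = 0.429), Rps13, a small subunit protein, at 0.23 (adjusted p = 0.465, limma) and Rpl32, a large subunit protein, at 0.15 (adjusted p = 0.480, limma). Rpl7l1, a paralog of Rpl7 that acts in ribosome assembly, had 21.4, 23.9 and 25.6 FPKM in AL and 29.1, 27.8 and 27.2 FPKM in CR mice (log2 fold change 0.24 ± 0.0989, SE, limma, adjusted p = 0.412).

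In aged mice the members were divided for CR. Of the 91, 52 had a log2 fold change above 0 against 48.6% of all genes, and the median was 0.007 against -0.004. At an unadjusted p under 0.05, 1 of 91 was higher (1.10%) against 4.50% of all genes, and none was lower against 3.22%. The one was Rps4l, with the per-mouse values given above (log2 fold change 0.62 ± 0.222, SE, limma, adjusted p = 0.549). Rpl38, a large subunit protein known for its role in translating patterning genes, had 52, 49.2 and 47.2 FPKM in AL and 59.9, 56.6 and 55.4 FPKM in CR mice (log2 fold change 0.21 ± 0.104, SE, limma, adjusted p = 0.686). Rpl22l1, the paralog of Rpl22, went the other way, with 148, 177 and 139 FPKM in AL and 138, 125 and 123 FPKM in CR mice (log2 fold change -0.26 ± 0.118, SE, limma, adjusted p = 0.648). Rps19bp1 was at 0.16.

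Over both ages, 72 of 91 were higher in CR than in AL mice against 50.8% of all genes, with a median of 0.046 (3.23%) against 0.003. At an unadjusted p under 0.05, 3 of 91 (3.30%) were higher against 7.42% of all genes, and none was lower against 6.45%. These 3 were Rps4l at 0.42 ± 0.157 (SE, limma, adjusted p = 0.266; 0.26 without mice 14 and 5), Rpl7l1 at 0.16 ± 0.0699 (SE, limma, adjusted p = 0.351) and Rpl38 at 0.17 ± 0.0736 (SE, limma, adjusted p = 0.352), or 0.08 for Rpl38 summed with its pseudogene rows. With the mouse weights described above, Rpl7l1 passed (log2 fold change 0.23, limma, adjusted p = 0.0319). It was 1 of 91 members, while 6.79% of all genes passed with these weights. Rps27 was next at 0.19 (limma, adjusted p = 0.366), with 98.4 FPKM in mouse 14 and 119 to 168 FPKM in the other 11, and Rpl39l followed at 0.31 (limma, adjusted p = 0.400). Markers of fat cells were higher in CR for 7 of 7 genes, 3 of which passed, at 268 to 541 FPKM in AL and 555 to 950 FPKM in CR mice, and B cell markers were lower for 12 of 12. Their part was not tested. In the lists around the ribosome, 31 of 41 biogenesis factors were higher with CR at a median of 0.047, with Grwd1 at 0.19 and Bop1 at 0.18. Mitochondrial ribosomal protein genes had 64 of 81 higher (median 0.069). The mTOR and Myc group had 12 of 23 higher at a median of 0.003. In it Ddit4, an inhibitor of mTOR signalling, was at 1.05 (limma, adjusted p = 0.0816). Initiation factors had 18 of 35 higher (median 0.004), elongation factors 3 of 8 (-0.026) and hosts of small nucleolar RNAs 2 of 7 (-0.074). Of 21 other genes known for TOP mRNAs, 7 were higher (-0.016).

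**Figure D5:**
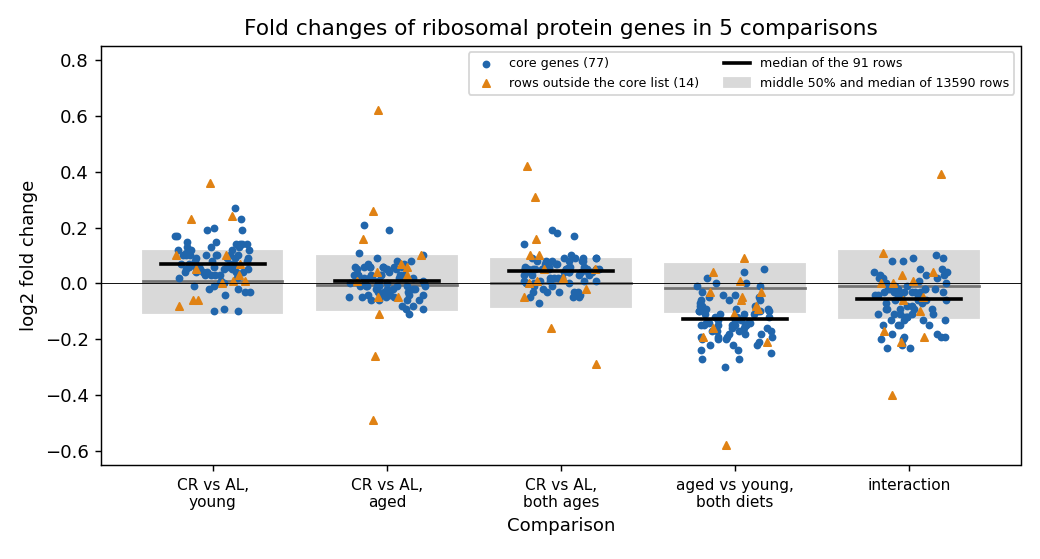
Log2 fold changes (y axis) of the 77 core genes and 14 other rows in 5 comparisons (x axis). Black bars are medians of the 91, grey boxes the middle 50% of 13590 genes with their median. The members are shifted most for age, to a median of -0.126, and lie around 0.007 for CR against AL in aged mice.

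The interaction asks whether the CR difference was the same at both ages. It was below 0, meaning less of a CR increase in aged mice, for 68 of 91 members against 52.3% of all genes, with a median of -0.054 against -0.010. At an unadjusted p under 0.05, 1 of 91 was below 0 (1.10%) against 1.86% of all genes, and none was above 0 against 2.37%. The one was Rps16 at -0.23 ± 0.105 (SE, limma, adjusted p = 0.999), which was 0.17 higher with CR in young and 0.06 lower in aged mice on the log2 scale. Rpl36 (-0.22), Rps3 (-0.20) and Rps9 (-0.15) followed. No member passed the test of a difference between the ages, and with 3 mice per group this comparison has the largest standard errors.

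Groups of members with a shared role were also counted for age. The 17 genes of the Diamond-Blackfan anemia group were lower in 17 of 17 cases, at a median of -0.148 and with 9 at an unadjusted p under 0.05. Over all 91 members 91.2% were lower and 45.1% were so at that p, so these 17 were close to the family as a whole. Rps19, the gene most often mutated in that disease, had 484 to 580 FPKM in young and 436 to 527 FPKM in aged mice (log2 fold change -0.14 ± 0.0604, SE, limma, adjusted p = 0.278). Rpl5 and Rpl11, which form the 5S particle and bind Mdm2, were at -0.12 and -0.09. Of 9 proteins at the exit tunnel and its rim, 8 were lower at a median of -0.149, 4 of them at an unadjusted p under 0.05, with Rpl31 at -0.27 and Rpl4 at 0.00. The 5 genes at the decoding centre and mRNA entry were lower in 5 of 5 cases at a median of -0.091, 1 of them at that p. The medians stood beside -0.126 for the 91, and no difference between these groups and the other members was tested. Rps14, the gene lost in the 5q- syndrome, had 913 to 1280 FPKM in young and 922 to 1010 FPKM in aged mice, with mice 1 and 2 as the highest (log2 fold change -0.13 ± 0.0779, SE, limma, adjusted p = 0.447).

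The paralogs and copies had their own levels. Rpl3l, the striated muscle form of Rpl3, was low at 0.442 to 5.22 FPKM, or 0.276% to 2.66% of Rpl3. It was highest in mouse 14 (5.22 FPKM), followed by mice 2 (3.74 FPKM) and 7 (3.61 FPKM), and lowest in mouse 6 (0.442 FPKM). Muscle markers summed to 887, 355 and 761 FPKM in mice 14, 2 and 7 and to 127 FPKM in mouse 6. The orders differed, as mouse 5 had 421 FPKM of muscle markers, above mouse 2, and mouse 3 had the lowest sum at 119 FPKM. A link of Rpl3l with muscle markers was not tested. Rpl3l had the largest standard error of the 91 for age (log2 fold change 0.09 ± 0.302, SE, limma, adjusted p = 0.911). Rpl39l, a form known from testis, was at 0.319% to 0.796% of Rpl39. Rpl22l1 was at 49.9% to 98.4% of Rpl22, with means of 72.6% ± 3.58, 57.6% ± 7.68, 75.5% ± 22.3 and 58.3% ± 9.33 (SD, n = 3) in AL and CR young mice and then AL and CR aged mice. The difference between aged AL and aged CR mice was smaller than the SD of aged AL mice. Rps27l was at 105% to 182% of Rps27, Rpl36al at 305% to 404% of Rpl36a and Rpl7l1 at 3.89% to 5.53% of Rpl7. Rps27 and Rpl36a have 100% of their words in other genes, so these ratios carry that uncertainty.

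The copies and paralogs listed next ranged from -0.03 to -0.21 for age, while Rpl7l1 and Rpl39l were at 0.04 and 0.01. Rps27rt, the retrocopy whose start is shown above, had 812 to 1100 FPKM, while Rps27 itself had 98.4 to 168 FPKM, and all of the words of both are found elsewhere. Its log2 fold change with age was -0.08 (limma, p = 0.276 unadjusted), next to -0.22 for Rps27. Rpl37rt had 820 to 933 FPKM at -0.03, Rps3a2 490 to 571 FPKM at -0.03, Rpl6l 160 to 194 FPKM at -0.05, Rps3a3 84.9 to 104 FPKM at -0.11 and Rpl36al 189 to 259 FPKM at -0.06. Rps12l1 had 571 to 827 FPKM and was at -0.19 (p = 0.0312, unadjusted limma), close to -0.20 for Rps12. Rps27l, which p53 is known to induce, was at -0.16 and Rpl22l1 at -0.21 (p = 0.0282, unadjusted limma). Rps19bp1 had 11.6 to 16.7 FPKM and was at -0.09.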

How the data were processed

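Total RNA of whole tibiae was sequenced by the authors from stranded mRNA libraries of 12 mice. Per the labels and methods, reads were checked with FastQC 0.11.8 and MultiQC 1.6, trimmed with Trim Galore 0.5.0 and aligned to mm10 with STAR 2.6.1. The deposited FPKM values were quantified by the authors with StringTie 2.1.3b and quantile normalized in R 4.1.1, so the mice have nearly the same distribution and a rise of some genes lowers the rank of others. Read counts were not used here, the depth is unknown, and the precision is the spread between mice. How the 4 technical repeats of a mouse were combined is not stated, and p-values measure the spread between these mice.

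Values were transformed to log2(FPKM + 1). The 13590 rows with a mean of at least 1 FPKM were fitted together in limma 3.58.1 (R 4.3.3) with 4 group means and a mean-dependent prior variance, leaving 8 residual degrees of freedom, and p-values were adjusted over all of them (Benjamini-Hochberg, called under 0.05). The fit was tested on simulated data. Log2 fold changes subtract group means on that scale, which understates changes of low genes. The members, gene lists and alternatives were chosen with earlier results of these data known. Named were the members with the 5 smallest p in a comparison, the 4 highest and 4 lowest core genes, every member outside the core list, a set of genes of known role and up to 4 genes of each other list by p. Some genes that this rule names are not reported here. Gene positions and transcripts were taken from GENCODE M21 (GRCm38), which held 99.2% of the listed identifiers and all 91 members, and starts from RefSeq (GRCm38.p6). Sharing was counted on 50-base words of 1 coding sequence per gene. The genome annotation used by the authors for counting is not given here, so sharing may differ in it. Alternatives were another pseudocount (0.1), no filter, size-factor scaling, mouse weights, no mean-dependent prior, fits of the groups compared alone, an unequal-variance test, and each mouse left out. Summing pseudogene rows and restricting to genes with little shared sequence were added after the data were seen.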

Additional observations from a re-analysis of the deposited data

How the results depend on the processing

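Under the alternatives tried, the members called stayed at 0 for CR against AL in young mice, in aged mice and for the interaction. With mouse weights, 1 member was called for diet (6.79% of all genes) and 47 for age (13.2%), and 67 were lower with age at an unadjusted p under 0.05, against 41, while that share of all genes rose from 9.76% to 18.4%. The weights were 0.453 for mouse 3 and 0.259 for mouse 14, and up to 3.58 for mouse 13. With size-factor scaling, 23 were lower with age at that p (8.06% of all genes), while the median of all genes for age moved by 0.012. Leaving out single mice gave 0 to 9 members called for age (9 without mouse 3, which were Rpl18, Rpl31, Rpl35a, Rpl38, Rps12, Rps16, Rps20, Rps21 and Rps27a) and 15 to 56 lower at an unadjusted p under 0.05 (6.79% to 12% of all genes). The median log2 fold change for CR in young mice ran from 0.021 without mouse 2 to 0.134 without mouse 3. For age the median stayed between -0.164 and -0.068 in every alternative and for diet between 0.023 and 0.066. For CR in aged mice it ran from -0.026 to 0.054 around 0.007, so its sign is not settled. The median of the interaction was -0.121 over the 10 core genes with little shared sequence. Some of these alternatives used fewer mice or genes, and the cause of these moves was not tested. Summed over core genes only, the mean FPKM was 28605, 30135, 27192 and 27195 in AL and CR young mice and in AL and CR aged mice, against 32596, 34239, 30982 and 31027 over all 91, since fewer genes were summed. Leaving out mice 14 and 5 together gave 0 members called and 45 lower with age at an unadjusted p under 0.05. The 5 members with the smallest p for diet and the 5 for age kept their direction in all 19 alternatives. No paired analysis was possible because the replicate numbers shared by the groups mark technical repeats, and the deposited columns hold 1 value per mouse. Read depth, which limits the precision of low members such as Rpl3l and Rpl39l, is unknown.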
